A study of Homo sapiens with 6 samples.

Results

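The genes described here are the platelet-derived growth factor (PDGF) genes PDGFA, PDGFB, PDGFC and PDGFD and the vascular endothelial growth factor (VEGF) genes VEGFA, VEGFB, VEGFC and PGF, the last of which encodes placental growth factor. They were chosen by name as the ligands of these families, and all 8 were found among the 20030 genes of the count table. Their mRNA was measured by RNA sequencing in HepG2, an established human hepatoma cell line. Of the 6 libraries, 3 were made from cells with a control shRNA (sh-ctrl) and 3 from cells whose shRNA was directed at KIF11 (sh-KIF11), a kinesin motor that separates the poles of the mitotic spindle. An shRNA is a short hairpin RNA that the cell processes into a small RNA directing the cleavage of a matching mRNA. Both groups shared the same kind of lentiviral knockdown vector, pLKO.1, and puromycin selection of infected cells, and differed in the hairpin. The study's list of oligonucleotides holds 1 hairpin against KIF11. The labels number the libraries of a group but do not say that they came from separate cultures, so the p-values measure the spread between these libraries, which may be technical.

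PDGF and VEGF proteins are secreted dimers that bind receptor tyrosine kinases on neighbouring cells. PDGFs act on PDGFRA and PDGFRB, mainly on mesenchymal cells such as pericytes and hepatic stellate cells, and VEGFs act on FLT1, KDR and FLT4, mainly on endothelial cells, with the neuropilins NRP1 and NRP2 as co-receptors. Tumour hepatocytes are a known source of VEGFA, whose gene is a classical target of the hypoxia-inducible factors (HIF).

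The 8 genes encode one protein family, held together by a cystine knot, and the short coding stretch shown here is the part of that knot in which they can be lined up. Each run was read from the GENCODE release 29 coding sequence of one transcript per gene, on GRCh38, from a proline codon to the last cysteine codon of the stretch, and capitals mark the 4 cysteine codons. The runs are written 5′ to 3′ in the direction of the gene.
PDGFA, chr7:510863-510901, minus strand: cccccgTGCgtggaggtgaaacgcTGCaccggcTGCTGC
PDGFB, chr22:39231676-39231714, minus strand: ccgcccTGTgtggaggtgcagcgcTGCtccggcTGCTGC
PDGFC, chr4:156767836-156767880, minus strand: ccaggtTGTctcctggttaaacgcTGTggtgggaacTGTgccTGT
PDGFD, chr11:103926975-103927019, minus strand: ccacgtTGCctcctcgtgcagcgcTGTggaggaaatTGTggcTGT
VEGFA, chr6:43777573-43777611, plus strand: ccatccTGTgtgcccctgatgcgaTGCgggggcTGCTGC
VEGFB, chr11:64235917-64235955, plus strand: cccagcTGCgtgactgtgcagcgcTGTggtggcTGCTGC
VEGFC, chr4:176727832-176727870, minus strand: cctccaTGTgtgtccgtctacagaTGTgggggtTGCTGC
PGF, chr14:74949411-74949449, minus strand: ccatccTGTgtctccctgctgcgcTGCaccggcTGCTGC

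The PDGFC and PDGFD stretches had 45 bases and the others 39, and each lay within 1 coding exon. Between stretches of the same length, PDGFA and PDGFB shared 33 of 39 bases (84.6%), VEGFA and PGF shared 32 of 39 (82.1%), and PDGFC and PDGFD shared 35 of 45 (77.8%). VEGFA and VEGFB, which bind a common receptor, shared 27 of 39 (69.2%), and VEGFB and PGF shared 26 of 39 (66.7%). Pairs of a PDGF and a VEGF gene ranged from 23 of 39 (59%, PDGFA and VEGFC) to 30 of 39 (76.9%, PDGFB and PGF). In the pathway annotation deposited with the counts, all 8 genes carried the terms Ras signaling pathway, Rap1 signaling pathway, MAPK signaling pathway, PI3K-Akt signaling pathway and Focal adhesion.

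On GRCh38 the PDGF genes lie at chr7:497258-520296 (PDGFA), chr22:39223359-39244751 (PDGFB), chr4:156760454-156971394 (PDGFC) and chr11:103907186-104164379 (PDGFD), all on the minus strand. VEGFA lies at chr6:43770184-43786487 and VEGFB at chr11:64234538-64238793, both on the plus strand, while VEGFC at chr4:176683538-176792727 and PGF at chr14:74941834-74955784 lie on the minus strand. PDGFA, VEGFB and PGF overlap no other annotated gene. The other 5 overlap genes on the opposite strand, for example AL136131.3 at VEGFA and AL031590.1 at PDGFB. The library kit keeps strand, but the strand setting of the counting was not given in the sources used here, so reads of those partners cannot be told apart from reads of the ligand genes.

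Depth was similar in all libraries, from 18167773 to 19583282 counts. A count of 0 allows up to 3 counts, which is 0.145 to 0.178 CPM (counts scaled to depth, here with the TMM factors of edgeR) across the libraries, for counting error alone. KIF11 itself was lower in sh-KIF11, with 68.8 ± 5.16 CPM against 116 ± 5.01 CPM in the controls (SD, n = 3 each). Its log2 fold change was -0.75 (with a standard error, SE, of 0.0573, adjusted p = 4.22e-15 by the quasi-likelihood test of edgeR, adjusted by Benjamini-Hochberg over 12369 tested genes). Of those genes, 4254 were higher and 4294 lower in sh-KIF11, and with library totals in place of TMM factors these counts were 6619 and 2378, since the median change over all tested genes then moved from 0.00 to 0.23 on the log2 scale. The fold changes given here are thus relative to the typical tested gene. As a check of the cell line, all 8 hepatocyte markers were detected in every library, led by ALB at 3586 FPKM (fragments scaled to transcript length and to depth) in sh-ctrl and 1417 FPKM in sh-KIF11. Of these 8 markers, 7 were lower in sh-KIF11, against 34.7% of all tested genes.

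Of the 8 ligand genes, 6 had enough counts to be tested and 5 of these passed an adjusted p of 0.05, against 69.1% of all tested genes. VEGFA, PDGFA, VEGFB and PGF were lower in sh-KIF11 (4 genes, against 34.7% of all tested genes that were lower), and PDGFC was higher (1 gene, against 34.4%). PDGFB did not pass. For the same 5 genes the groups had no overlapping library, against 71.2% of all tested genes. Calls and separated groups were thus common in the whole transcriptome, and the counts say nothing particular of the ligands. The 6 tested ligands had a median log2 fold change of -0.87, beside a median of 0.00 and quartiles of -0.31 and 0.36 over all tested genes. In bulk RNA, fewer expressing cells and less mRNA per cell cannot be told apart. PDGFD had too few counts for the test and VEGFC had no count.

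**Figure D1:**
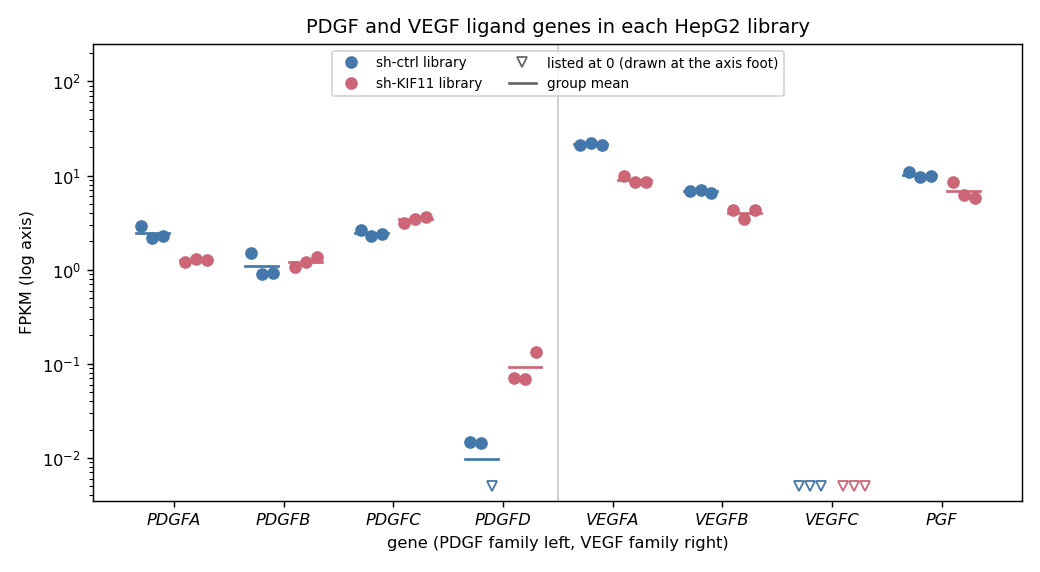
Level of each PDGF and VEGF ligand gene in each library, in FPKM on a log axis, with sh-ctrl libraries in blue, sh-KIF11 libraries in red, group means as bars and values of 0 as open triangles at the foot. All 3 sh-KIF11 libraries lie below all 3 sh-ctrl libraries for PDGFA, VEGFA, VEGFB and PGF and above them for PDGFC and PDGFD, while PDGFB overlaps and VEGFC is at 0 throughout.

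Levels of different genes can be compared per transcript length, in FPKM. In sh-ctrl, VEGFA was the most abundant ligand at 21.4 ± 0.698 FPKM (SD, n = 3), followed by PGF at 10.2 ± 0.725 and VEGFB at 6.79 ± 0.272 FPKM. PDGFA at 2.45 ± 0.402 and PDGFC at 2.43 ± 0.196 FPKM came next and did not differ beyond their spread, and PDGFB followed at 1.11 ± 0.330 FPKM. VEGFA thus lay at percentile 79.6 of the tested genes and PDGFB at percentile 20.4. In sh-KIF11 the order was VEGFA at 9.03 ± 0.690, PGF at 6.84 ± 1.47, VEGFB at 4.02 ± 0.522 and PDGFC at 3.43 ± 0.255 FPKM, then PDGFA at 1.26 ± 0.0449 and PDGFB at 1.21 ± 0.155 FPKM. The libraries of VEGFB and PDGFC overlapped in this group, as did those of PDGFA and PDGFB. VEGFA remained the most abundant ligand, at percentile 58.5 of the tested genes.

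VEGFA, the main growth and permeability factor of endothelial cells, had the largest fall. Its counts were 2101, 2228 and 2026 in sh-ctrl against 1008, 893 and 885 in sh-KIF11. Every knockdown library lay well below every control library. The normalised level fell from 120 ± 2.85 CPM to 46.1 ± 3.70 CPM (SD, n = 3 each), and the log2 fold change was -1.39 (SE 0.0589, adjusted p = 1.73e-23) or 2.61-fold. Of all tested genes, 1.37% had a lower log2 fold change. The counts are per gene and do not separate the splice forms of VEGFA, which differ in how they bind heparan sulphate.

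VEGFB and PGF, which bind FLT1 but not KDR, were lower too. VEGFB, linked to fatty acid uptake and to survival of vessel cells, was counted 312, 329 and 264 times in sh-ctrl against 191, 151 and 182 times in sh-KIF11. Its level was 17.1 ± 1.33 CPM in sh-ctrl and 8.68 ± 1.21 CPM in sh-KIF11, with a log2 fold change of -0.98 (SE 0.109, adjusted p = 1.73e-10). The groups were clearly apart, with the lowest control library above the highest knockdown library, and on the log2(FPKM + 1) scale the difference of VEGFB was -0.64. PGF, first described in placenta, was counted 524, 468 and 445 times in sh-ctrl against 407, 300 and 269 times in sh-KIF11. Its level was 27.2 ± 1.88 CPM in sh-ctrl and 16.1 ± 3.62 CPM in sh-KIF11, with a log2 fold change of -0.75 (SE 0.0999, adjusted p = 1.21e-08). Here sh-KIF11 library 1 lay nearer to the control libraries than the other two, and without it the log2 fold change of PGF was -0.95.

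VEGFC, a ligand of the lymphatic receptor FLT4, had 0 counts in all 6 libraries, and its expression was not detectable at this depth. VEGFD, its closest relative, was counted 2, 4 and 6 times in sh-ctrl against 11, 12 and 6 times in sh-KIF11. The groups shared the value 6, and the ratio of the summed counts scaled to depth was 2.11 (95% counting interval 1.04 to 4.54, exact permutation test over libraries, two-sided, p = 0.2).

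PDGFA, a ligand of PDGFRA, had the largest change among the 3 tested PDGF genes. It was counted 208, 178 and 181 times in sh-ctrl against 88, 102 and 104 times in sh-KIF11. The 3 knockdown libraries were close to each other and below all control libraries. Its level fell from 10.7 ± 0.90 CPM to 4.86 ± 0.447 CPM (SD, n = 3 each), and the log2 fold change was -1.14 (SE 0.133, adjusted p = 5.41e-10) or 2.21-fold. On the log2(FPKM + 1) scale, which understates the change of low genes, the difference of PDGFA was -0.60.

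PDGFC, which is secreted with a CUB domain that must be cut off before it can bind PDGFRA, moved the other way. It was counted 182, 164 and 166 times in sh-ctrl against 241, 254 and 266 times in sh-KIF11. The groups did not overlap, although the step between them was small. Its level rose from 9.71 ± 0.569 CPM to 12.6 ± 0.788 CPM (SD, n = 3 each), and the log2 fold change was 0.37 (SE 0.109, adjusted p = 0.00244), and 75.9% of tested genes had a lower log2 fold change. With library totals in place of TMM factors the value was 0.60.

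PDGFB, the ligand that recruits pericytes through PDGFRB, was counted 125, 85 and 72 times in sh-ctrl against 86, 98 and 115 times in sh-KIF11. The groups overlapped, with sh-ctrl library 1 as the highest of all. Its level was 5.33 ± 1.47 CPM in sh-ctrl and 4.95 ± 0.795 CPM in sh-KIF11, with a log2 fold change of -0.11 (95% interval -0.46 to 0.24, adjusted p = 0.590). Without sh-ctrl library 1 the value of PDGFB was 0.14, with library totals 0.12, and no direction can be given.

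PDGFD, the other PDGF with a CUB domain and a ligand of PDGFRB, was counted 1, 1 and 0 times in sh-ctrl against 5, 5 and 9 times in sh-KIF11. The counts of the knockdown libraries were all higher, yet close to the detection limit. The ratio of the summed counts scaled to depth was 8.29 with a 95% counting interval of 2.0 to 73.4. The exact two-sided permutation test over libraries gave p = 0.1, the smallest that 3 libraries against 3 allow. In a fit without the filter on low counts the log2 fold change of PDGFD was 2.84 (adjusted p = 0.0131, edgeR).

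**Figure D2:**
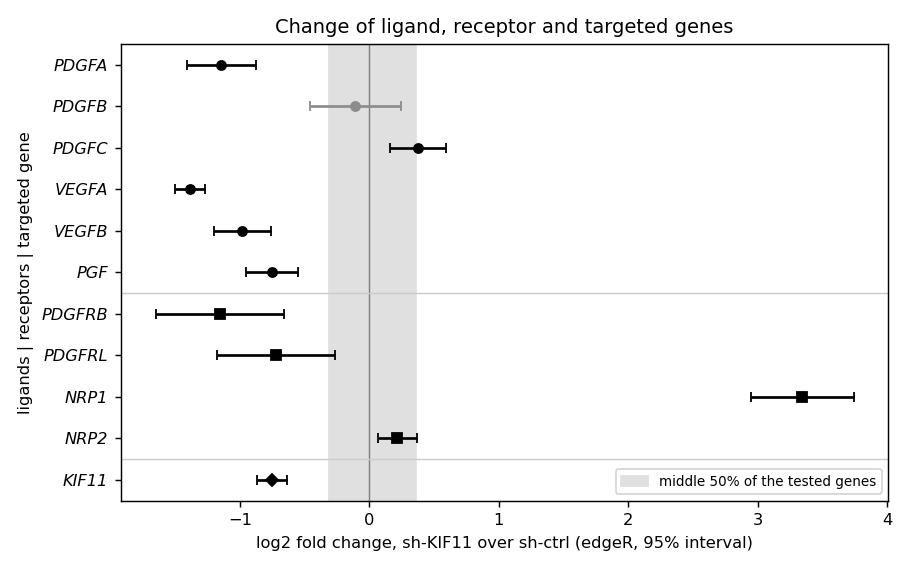
Log2 fold change of sh-KIF11 over sh-ctrl with its 95% interval from edgeR for the tested ligands (circles), the tested receptors (squares) and KIF11 (diamond). Grey marks PDGFB, which did not pass the threshold, and the shaded band holds the middle of the tested genes, from -0.31 to 0.36. VEGFA lies lowest among the ligands at -1.39 and NRP1 far to the right at 3.35.

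Because the members of a family moved unequally, the mixture of ligand mRNA differed between the groups. On the FPKM scale PDGFA and PDGFC took nearly equal shares of the summed PDGF level in sh-ctrl, 40.8% ± 0.430 and 40.9% ± 2.87 (SD, n = 3). In sh-KIF11 the share of PDGFA was 21.1% ± 1.25 and that of PDGFC 57.2% ± 0.390, with no overlap between the groups for either gene. The ratio of PDGFC to PDGFA in FPKM was 0.913, 1.06 and 1.04 in sh-ctrl against 2.59, 2.67 and 2.88 in sh-KIF11. The share of PDGFB overlapped, at 18.2% ± 2.49 and 20.2% ± 1.08. The summed PDGF level was 6.0 ± 0.928 FPKM in sh-ctrl and 6.0 ± 0.462 FPKM in sh-KIF11, and the libraries overlapped. On the CPM scale, which was added after seeing the data, the sums were 25.8 ± 2.75 and 22.7 ± 2.11 CPM and overlapped too. The CPM scale carries the TMM factors, which were not applied to the FPKM values, so sums on the 2 scales differ in normalization as well as in length scaling.

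The summed VEGF level dropped in every knockdown library. It was 38.7, 38.8 and 37.5 FPKM in sh-ctrl and 22.7, 18.3 and 18.7 FPKM in sh-KIF11, a ratio of the group means of 0.519 (0.430 on the CPM scale). The share of VEGFA within it was 55.8% ± 1.60 in the controls and 45.6% ± 1.99 after knockdown (SD, n = 3 each), while that of PGF was 26.5% ± 1.83 and 34.1% ± 3.36 and that of VEGFB 17.7% ± 0.407 and 20.3% ± 2.39. None of these shares overlapped between the groups. The ratio of VEGFA to PGF in FPKM was 2.12 ± 0.204 in sh-ctrl and 1.35 ± 0.174 in sh-KIF11.

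**Figure D3:**
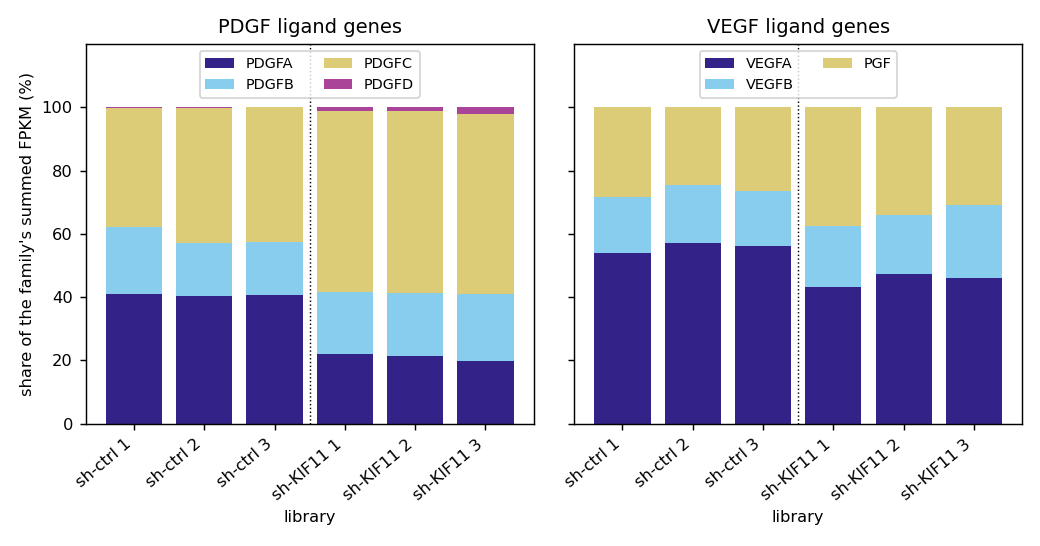
Share of each ligand gene in the summed FPKM of the PDGF genes (left) and of the VEGF genes (right), in percent, as stacked bars for each library. PDGFC takes between 56.8% and 57.6% of the PDGF sum in the sh-KIF11 libraries against 37.6% to 42.6% in sh-ctrl, and VEGFA takes a smaller share of the VEGF sum in all sh-KIF11 libraries.

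The receptors for these ligands were low or not detected in HepG2. FLT1 had 0 counts in all libraries, KDR had 1 count in a single sh-ctrl library, and FLT4 had 2 counts in a single sh-KIF11 library. PDGFRA, the receptor for PDGFA and PDGFC, had no count in sh-ctrl against 3, 1 and 5 in sh-KIF11, too near the detection limit for a fold. PDGFRB was counted 65, 61 and 42 times in sh-ctrl against 34, 27 and 25 times in sh-KIF11. It was lower without overlap, with a log2 fold change of -1.16 (SE 0.245, adjusted p = 6.36e-05) from the TMM-scaled counts. The level of PDGFRB was 0.247 ± 0.0638 FPKM in sh-ctrl and 0.132 ± 0.0224 FPKM in sh-KIF11. PDGFRL, a secreted protein similar to the ligand-binding part of the PDGF receptors, was lower as well, with a log2 fold change of -0.72 (SE 0.226, adjusted p = 0.00480).

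Both neuropilins were higher. NRP1, a co-receptor that binds VEGFA and class 3 semaphorins, was counted 17, 15 and 17 times in sh-ctrl against 181, 204 and 190 times in sh-KIF11. The knockdown libraries formed a tight group far above the controls. The log2 fold change of NRP1 from the TMM-scaled counts was 3.35 (SE 0.195, adjusted p = 8.10e-19), or 10.2-fold. Its level was 0.103 ± 0.0150 FPKM in sh-ctrl and 1.17 ± 0.0945 FPKM in sh-KIF11, and on the log2(FPKM + 1) scale the difference was 0.97. NRP2 stayed the more abundant neuropilin, at 1.72 ± 0.126 FPKM in sh-ctrl and 2.18 ± 0.109 FPKM in sh-KIF11, and its rise was small, with a log2 fold change of 0.22 (SE 0.0740, adjusted p = 0.00964). Some endothelial markers moved with NRP1, and of the 9 listed, 5 were tested and 4 were higher in sh-KIF11, against 34.4% of all tested genes. TIE1, an orphan endothelial receptor, was counted 9, 14 and 4 times in sh-ctrl against 364, 329 and 284 times in sh-KIF11, with a log2 fold change of 4.96, and ROBO4 and ESAM had 3.95 and 2.0. TIE1 and ROBO4 passed the filter through the knockdown group alone, and among the 3 markers with at least 10 counts in every library 2 were higher, with a list median of 1.03 in place of 2.0. The summed level of the list was 9.36 to 9.60 CPM in sh-ctrl and 46.1 to 49.8 CPM in sh-KIF11. The defining endothelial genes TEK and EMCN had 0 counts in all libraries, and neither CDH5 nor CLDN5 exceeded 2 counts in any.

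The ligands are cut by proteases before or after secretion. Of 9 processing genes, 7 were tested, 3 were higher and 1 lower in sh-KIF11, against 34.4% higher and 34.7% lower among all tested genes. The median log2 fold change of the list was 0.52, the value of ST14, which was not called (adjusted p = 0.150, edgeR). That median was 0.18 with limma on log2(FPKM + 1) and 0.75 with library totals alone. PLAU, the urokinase that activates PDGFD, was counted 18, 20 and 25 times in sh-ctrl against 116, 97 and 155 times in sh-KIF11, with a log2 fold change of 2.34 (adjusted p = 5.85e-12). FURIN, a proprotein convertase that cleaves PDGFA and PDGFB precursors, rose by 0.63 and PCSK5 by 0.34 on the log2 scale, and PCSK6 fell by 0.37. The call of PCSK5 was lost with DESeq2 (adjusted p = 0.0542), without sh-ctrl library 2 (0.0568) and without sh-KIF11 library 2 (0.0671), within a range of 4.89e-05 to 0.0671 over the alternatives. With library totals alone, 6 of the 7 were higher and 1 was lower.

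Genes of the oxygen-sensing system, which controls VEGFA, were read next. Among the HIF subunits and oxygen sensors, 8 of 10 genes were tested, 0 were higher and 6 lower, against 34.4% and 34.7% of all tested genes, with a median log2 fold change of -0.27. EGLN3, EPAS1 and EGLN2, of which EPAS1 encodes HIF-2 alpha and the others are prolyl hydroxylases, had log2 fold changes of -0.77, -0.44 and -0.42. This split depended on the scaling, since with library totals alone 3 genes of the list were higher and 3 lower. ARNT2, a further gene of this list, had too few counts for the test and went the other way. Its counts were 0, 3 and 2 in sh-ctrl against 10, 9 and 17 in sh-KIF11, without overlap. The ratio of its summed counts scaled to depth was 6.28 (counting interval 2.46 to 20.5). HIF1A, named after its value was seen, was counted 2875, 2853 and 2794 times in sh-ctrl against 2421, 2810 and 2544 times in sh-KIF11, with a log2 fold change of -0.33. Of the 14 other HIF target genes, 14 were tested, 12 were lower and 1 was higher, against 34.7% lower and 34.4% higher among all tested genes, with a median log2 fold change of -1.02 (-0.79 with library totals alone). NDUFA4L2, a mitochondrial protein induced by hypoxia, and CA9, a carbonic anhydrase, had the largest falls, with log2 fold changes of -3.87 and -3.75, and ANKRD37 followed with -2.23. CA9 was counted 135, 120 and 125 times in sh-ctrl against 12, 12 and 8 times in sh-KIF11, and NDUFA4L2 37, 41 and 54 times against 2, 5 and 3 times. Both passed the filter on low counts through the control group alone. Among the 12 genes of the list with at least 10 counts in every library, 10 were lower and 1 higher, with a median of -0.88. SLC2A1, the glucose transporter GLUT1, rose by 0.61 on the log2 scale (adjusted p = 1.01e-14).

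Of 8 other angiogenic ligands, 4 were tested, 3 were lower and 1 was higher, against 34.7% and 34.4% of all tested genes. The 2 with at least 10 counts in every library were both lower. EFNA1, a membrane-bound ligand of Eph receptors, and ANG, a secreted ribonuclease made by the liver, had log2 fold changes of -1.55 and -1.39. The higher gene was ANGPT1, with a log2 fold change of 1.08 (adjusted p = 0.0349, edgeR). This call was lost with DESeq2. FGF1 had too few counts for the test and was higher too. Its counts were 1, 0 and 2 in sh-ctrl against 13, 10 and 13 in sh-KIF11, without overlap. The ratio of the summed FGF1 counts scaled to depth was 10.5 (counting interval 3.31 to 53.1). ANGPT2 and HGF had no count. Of 9 secreted inhibitors of angiogenesis, 7 were tested, 2 were higher and 4 lower, against 34.4% and 34.7% of all tested genes, with a median log2 fold change of -0.29 (-0.05 with library totals alone, where 3 were higher and 3 lower). THBS2, a thrombospondin, and SPARC, which binds PDGF and VEGF, rose by 2.46 and 1.68 on the log2 scale from low levels. THBS2 was counted 4, 5 and 7 times in sh-ctrl against 44, 31 and 28 times in sh-KIF11. It passed the filter on low counts through the knockdown group alone. Among the 6 inhibitors with at least 10 counts in every library, 1 was higher and 4 were lower, with a median of -0.35. TIMP3, a metalloproteinase inhibitor that also blocks KDR, SERPINF1, the pigment epithelium-derived factor, and CTGF, which binds VEGFA, had log2 fold changes of -1.34, -0.86 and -0.46.

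Downstream of the receptors, all 18 listed signalling genes were tested, 9 were higher and 3 lower, against 34.4% and 34.7% of all tested genes, with a median log2 fold change of 0.15. In all, 12 of the 18 were called, a share near the 69.1% of all tested genes. PLCG1, a phospholipase that binds activated PDGF and VEGF receptors, had the largest rise at 0.70 on the log2 scale (adjusted p = 9.57e-16), followed by RASA1, a GTPase-activating protein for RAS, at 0.54. HRAS and PIK3R2, a regulatory subunit of PI3-kinase, had log2 fold changes of -0.25 and -0.24, and GRB2, an adaptor protein, had -0.13. This list depended on the scaling, since with library totals alone 15 genes were higher and 0 lower, and GRB2 was then at 0.10. GRB2 kept its call and direction under 8 of 15 alternatives.

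**Figure D4:**
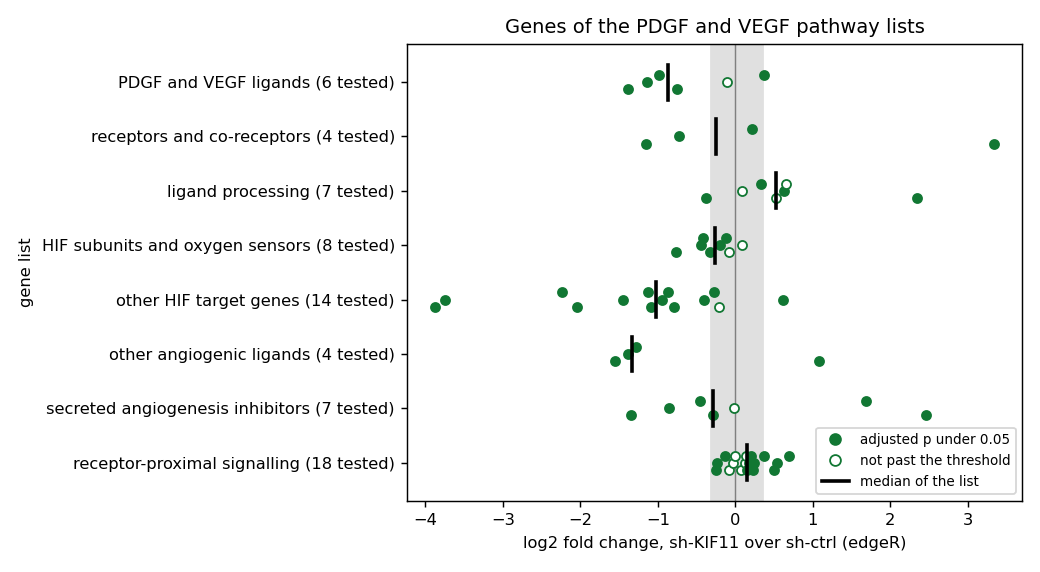
Log2 fold change of each tested gene of the ligand family and of the pathway lists, one point per gene, filled where the adjusted p was under 0.05, with the list median as a black bar and the middle of all tested genes as a shaded band. The other HIF target genes lie mostly left of the band with a median of -1.02, and the receptor-proximal signalling genes lie mostly inside it with a median of 0.15.

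Markers of other cell types were read beside the ligands, since PDGF and VEGF act between cell types. Of 10 mesenchymal and stellate markers, 2 were tested and both were higher, against 34.4% of all tested genes. ACTA2 had a log2 fold change of 1.03 and RGS5 had 0.97. The summed level of that list was 92.0 to 94.8 CPM in sh-ctrl and 186 to 199 CPM in sh-KIF11, nearly all from ACTA2, and DCN, THY1 and LRAT had 0 counts in all libraries. Of 6 leukocyte markers, 4 were tested, 1 was higher and 3 were lower, against 34.4% and 34.7% of all tested genes. LYZ was at -2.35, CD68 at -0.90 and CD79A at 1.89 on the log2 scale, while PTPRC did not exceed 1 count in any library. The other lower marker, CD14, passed the filter on low counts through the control group alone. Among the 3 markers with at least 10 counts in every library, 1 was higher and 2 were lower, with a median of -0.87. The sum of the leukocyte list was 2482 to 2978 CPM in sh-ctrl and 509 to 640 CPM in sh-KIF11, most of it LYZ, and CD3E had 3 counts in a single library. The sum of the 8 hepatocyte markers was 27788 to 28925 CPM in sh-ctrl and 13442 to 14530 CPM in sh-KIF11, with APOA1, SERPINA1 and ALB at -1.92, -1.57 and -1.49. The rest of the hepatocyte list was at -1.23 (AFP), -0.96 (FGB), -0.47 (HNF4A), -0.35 (APOB) and -0.13 (TTR, not called), with a list median of -1.10. The log2 fold changes of VEGFA, PDGFA and VEGFB, at -1.39, -1.14 and -0.98, lay within the range of these markers. The part of the marker change in the ligand results was not tested.

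For each tested ligand, the genes with the most similar course over the 6 libraries were sought among the 11751 tested genes whose mean reached 1 CPM, by the Euclidean distance of log2 CPM after subtracting the mean of the sh-ctrl libraries. With the sh-ctrl mean subtracted, this distance depends largely on the difference between the groups. Genes near a ligand thus have a similar log2 fold change by construction. The genes closest to VEGFA were CFB, C8A and C2 at distances of 0.120, 0.134 and 0.134, with log2 fold changes of -1.42, -1.37 and -1.37. PDGFA was closest to C19orf66, SEMA3G and TEDC1, at distances of 0.172, 0.181 and 0.219. PDGFC was closest to PAPOLG, NCOA7 and TERF2IP at 0.0751, 0.0830 and 0.0844. VEGFB was closest to NARF, MMAB and HSD11B2 at 0.121, 0.161 and 0.174, and PGF to ENG, ELF5 and TOX3 at 0.172, 0.195 and 0.216. PDGFB had ALDH1L1, ADPRHL1 and CISH nearest, at the larger distances of 0.213, 0.268 and 0.301.

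PDGFA, VEGFB and PGF, which were lower, are shown here with a promoter window each. RefSeq windows on GRCh38.p14, from 250 bases before to 50 bases after a transcript start, matched 5 of the 8 ligand genes, namely PDGFA, PDGFD, VEGFB, VEGFC and PGF, with 9 windows in all. Where a gene had several, the one nearest to its GENCODE start is printed. The GC box GGGCGG, a binding motif of SP1, was searched on both strands and is in capitals, with overlapping copies run together.
PDGFA, chr7:520177-520476, minus strand: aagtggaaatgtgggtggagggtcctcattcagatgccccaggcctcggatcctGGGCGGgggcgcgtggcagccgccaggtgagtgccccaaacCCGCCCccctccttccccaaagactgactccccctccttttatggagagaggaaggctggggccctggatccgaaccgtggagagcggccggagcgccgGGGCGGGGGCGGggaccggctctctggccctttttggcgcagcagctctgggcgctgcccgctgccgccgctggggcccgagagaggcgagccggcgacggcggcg
VEGFB, chr11:64234334-64234633, plus strand: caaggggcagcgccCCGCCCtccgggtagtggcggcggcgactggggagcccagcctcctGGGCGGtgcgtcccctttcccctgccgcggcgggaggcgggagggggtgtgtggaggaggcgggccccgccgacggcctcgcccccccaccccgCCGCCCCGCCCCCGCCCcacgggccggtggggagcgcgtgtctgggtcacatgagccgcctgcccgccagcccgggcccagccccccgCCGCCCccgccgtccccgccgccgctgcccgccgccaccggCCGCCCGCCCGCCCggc
PGF, chr14:74955715-74956014, minus strand: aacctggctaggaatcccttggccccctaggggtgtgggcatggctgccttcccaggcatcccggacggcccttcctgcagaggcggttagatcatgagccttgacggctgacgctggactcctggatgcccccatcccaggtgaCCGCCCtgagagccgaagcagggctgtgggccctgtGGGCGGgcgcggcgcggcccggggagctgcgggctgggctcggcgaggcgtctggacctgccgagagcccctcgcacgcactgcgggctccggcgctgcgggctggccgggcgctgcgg

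The GC box was found in all 9 windows and in 45% of 35116 windows of the same length, with 4 copies in the printed window of PDGFA, 9 in that of VEGFB and 2 in that of PGF. These windows were rich in G and C, at 71.7%, 84.7% and 73.0% of bases. The core of the HIF motif, ACGTG, searched on both strands, was found in 0 of the 9 windows and in 21.4% of all windows, which says only that these letters are not in these windows. The 9 windows come from 5 genes, several from PDGFA, and those of PGF overlap. They are thus not separate observations, and a difference from all windows was not tested. PDGFD and VEGFC, of which PDGFD was near the detection limit and VEGFC had no count, had the GC box too.

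**Figure D5:**
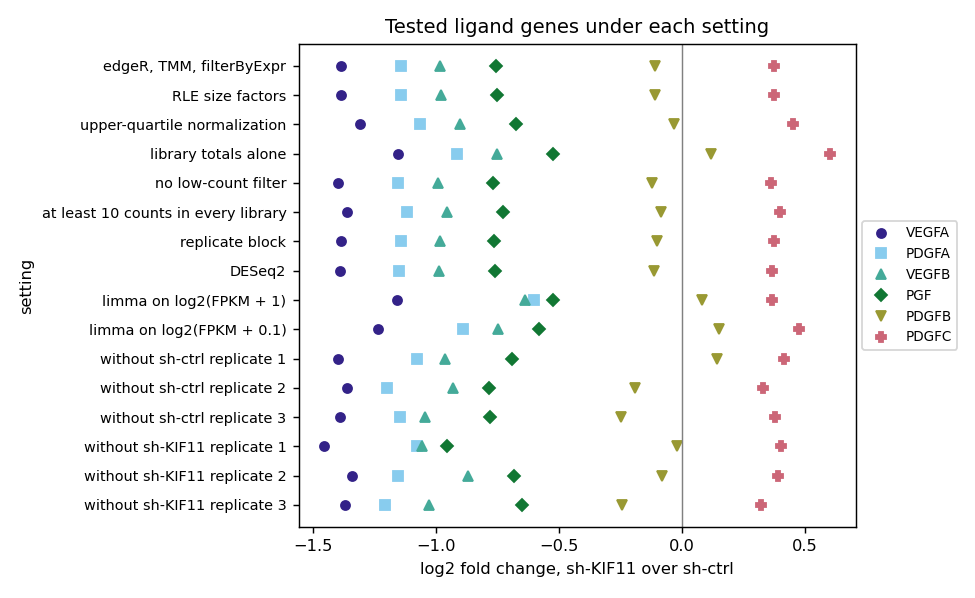
Log2 fold change of the tested ligand genes under each setting, with the setting of the main test at the top and the alternatives below. VEGFA, PDGFA, VEGFB and PGF stay below 0 and PDGFC above 0 in every setting drawn, whereas PDGFB lies between -0.25 and 0.15.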

How the data were processed

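RNA of 6 HepG2 libraries was measured, 3 sh-ctrl and 3 sh-KIF11. According to the labels and methods, stranded libraries were prepared from poly(A) RNA and sequenced with 150 bp paired-end reads, and the reads were trimmed with Trimmomatic. The submitters' processing notes name GRCh38, HISAT2 2.1.0, HTSeq 0.9.1, Cufflinks 2.2.1 and DESeq without their roles. The annotation release was not given in the sources used here. The authors deposited whole-number counts per gene, not normalized, and a second table of FPKM values, already scaled to length and depth. Knockdown columns are headed only shRNA and were taken as sh-KIF11, the labels' only other shRNA.

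Counts were analysed with edgeR 4.0.16 in R 4.3.3 (TMM factors, filterByExpr, quasi-likelihood test with group as the only term, Benjamini-Hochberg adjustment over 12369 genes, threshold 0.05, two-sided), and 7661 genes were left out. CPM values are TMM-scaled, with a prior count of 2 for log2 CPM. Depth was 18167773 to 19583282 counts, and intervals and detection limits cover counting error only. Within groups, library counts varied beyond sampling noise (chi-square over its degrees of freedom 2.62 to 7.83, against 80.2 to 97.8 between groups). Each library was kept as a replicate, although such a spread does not tell separate cultures from technical repeats. Alternatives were RLE, upper-quartile and total scaling, other filters, a replicate block, limma 3.58.1 on log2(FPKM + 1) or log2(FPKM + 0.1), DESeq2 1.42.0, and each library left out.

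The ligand genes, lists and tests were chosen with earlier results of these data known. Named genes are the ligands, VEGFD, the receptors, KIF11, up to 3 rising and 3 falling genes per list with the largest log2 fold changes (adjusted p under 0.05, mean of at least 1 CPM, no overlap), and the 3 nearest genes per tested ligand. Genes with 0 or few counts, genes that set a marker sum and some further genes of the marker and processing lists were named after their values were seen. A named result was left out and is not reported here.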

Additional observations from a re-analysis of the deposited data

How the results depend on the processing

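The 5 called ligand genes were called in the same direction under all 15 alternatives, with log2 fold changes of -1.45 to -1.16 for VEGFA, -1.21 to -0.60 for PDGFA, -1.06 to -0.64 for VEGFB, -0.95 to -0.52 for PGF and 0.32 to 0.60 for PDGFC. The smallest values of PDGFA and VEGFB came from limma on log2(FPKM + 1), and the largest of PDGFC from library totals. PDGFB was not called under any alternative, and its sign changed, with 0.12 under library totals, 0.0810 under limma on log2(FPKM + 1), 0.15 on log2(FPKM + 0.1), and -0.25 to 0.14 with each library left out, the last without sh-ctrl library 1. GRB2 changed sign under library totals (0.10) and both limma fits (0.0633 and 0.0641) and lost its call with upper-quartile scaling, with at least 10 counts in every library, and without sh-KIF11 library 2 or 3, with adjusted p from 0.00401 to 0.349 over the alternatives. HRAS, PIK3R2 and PCSK5 each lost their call under 3 alternatives. The cause was not tested. Over all genes, upper-quartile scaling gave 5014 higher and 3563 lower, library totals 6619 and 2378, and limma 5828 and 2528 or 5921 and 2550. On the CPM scale the share of VEGFA in the VEGF sum was 73.1% in sh-ctrl and 65.2% in sh-KIF11. With the replicate number as a block, 5 ligand genes and 8607 genes in all were called, against 8548 without it. Libraries of the same number did not deviate together (correlations 0.0300, -0.0185 and -0.00253), so the numbers were not taken as pairs. PDGFD and VEGFC had too few counts for most settings. Depth limits what can be said of PDGFD, VEGFC, VEGFD, PDGFRA, FLT1, KDR, FLT4, ARNT2 and FGF1.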
